A study of Mus musculus with 8 samples.

Results

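The comparison described here set liver RNA from Dicer1-knockout mice given N-ethyl-N-nitrosourea (ENU) against liver RNA from Dicer1-knockout mice given vehicle. It used the 4 arrays labelled as knockout, 2 per treatment, out of 8 arrays in the series, and it covered 17919 genes. All mice were C57BL/6, 6 months old and labelled female, and all carried Dicer1 alleles flanked by loxP sites. The knockout (KO) mice also carried Albumin-Cre, a Cre recombinase driven by the albumin promoter, which is used to delete Dicer1 in hepatocytes. How complete the deletion was, and whether it reached other liver cells, was not tested. Littermates with the loxP alleles and no Cre (WT) made up the other 4 arrays, 2 per treatment, and their values are given beside those of the KO. The ENU mice received 120 mg/kg once into the peritoneum and were measured on day 15. The vehicle mice received dimethylsulfoxide in the same volume, 2 ml/kg, and the labels used here give no day for them. The labels give neither the number of mice behind an RNA sample nor the time of day at which tissue was taken.

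ENU is an alkylating mutagen that transfers ethyl groups to DNA bases, and the resulting lesions are removed by direct reversal and by base excision repair. Dicer1 encodes the ribonuclease that cuts precursor hairpins into mature microRNAs, among them miR-122, the main microRNA of hepatocytes. Livers without Dicer1 in hepatocytes are known to show hepatocyte death, regeneration and inflammation with time.

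Arrays a and b of a group differed about as much as repeated spots on 1 array, with a median absolute standardised difference of 0.844 in KO vehicle and 0.756 in KO ENU, against 12.1 to 14.6 between these groups. They were therefore counted as 1 RNA sample, and a difference between the KO groups sets 1 RNA sample against 1, with no replicate check and no test. In what follows, higher and lower mean a difference of at least 2-fold, a log2 difference of at least 1, between the group means. The ENU arrays lay on 1 slide and the vehicle arrays on another, so that slide and ENU cannot be told apart. The scanner software rated its negative control spots as out of range on all 4 vehicle arrays and as in range on all 4 ENU arrays. In bulk tissue, fewer cells of a type and less RNA per cell cannot be told apart either.

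The labelled sex did not match the arrays. The Y-linked genes Ddx3y, Eif2s3y and Kdm5d were well above background on all 8 arrays. Ddx3y read 1.71 and 1.70 in KO vehicle and 1.68 and 1.73 in KO ENU, on the log2 scale used throughout, where 0 is the array's own 75th percentile of signal. Of 4 probes for Xist, the RNA that coats the inactive X chromosome, 3 were not well above background on any array. The remaining Xist probe read -2.10 and -5.70 in KO vehicle and -6.81 and -3.88 in KO ENU, so its arrays overlapped.

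Dicer1 itself was read by 2 probes. The brighter read 0.62 and 0.63 in KO vehicle, 0.17 and 0.17 in KO ENU, 1.17 and 1.08 in WT vehicle and 0.42 and 0.42 in WT ENU. The dimmer read -4.13 and -4.50 in KO vehicle, -3.94 and -4.10 in KO ENU, -1.92 and -1.80 in WT vehicle and -2.62 and -2.41 in WT ENU. On both probes and both slides the KO arrays lay below the WT arrays, and the difference between ENU and vehicle within KO was under 2-fold on either probe (-0.46 and 0.30). Whether either probe lies in the deleted part was not checked here.

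Of the 17919 genes, 787 (4.39%) were higher and 953 (5.32%) lower after ENU in KO, around a median log2 difference of -0.05. The arrays of the 2 groups did not overlap for 770 of the higher and 942 of the lower genes. The same count over all genes is not given here. Arrays a and b are near repeats, with a median absolute difference of 0.045 in KO vehicle and 0.043 in KO ENU. Over all genes the median absolute difference between ENU and vehicle was 0.339, so such separation adds no support to the calls. At 4-fold or more there were 116 genes higher and 149 lower. Among genes well above background on all 4 KO arrays, differences of 8-fold or more were 2 upward and 26 downward, so the far tail lay on the side of lower expression. Among these same genes, the largest decreases included serum amyloid, renin, lipid-droplet, metallothionein and stress genes. Of the 12 largest increases among them, 9 lay in an immunoglobulin locus. The 2 arrays of a group were 2-fold apart for 166 genes in KO vehicle and 208 in KO ENU. The WT samples give the only other measure of ENU. A limma fit to all 4 RNA samples, with terms for treatment and for genotype, called 0 genes as risen and 0 as fallen at an adjusted p under 0.05. The lowest limma adjusted p was 0.150, while 4053 genes (22.6%) had an unadjusted p under 0.05. With normexp background correction, limma called 3 genes as fallen, Cidec, Mt1 and Mt2, each at an adjusted p of 0.0277, and with an intensity trend the same 3 genes, each at an adjusted p of 0.012.

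**Figure D1:**
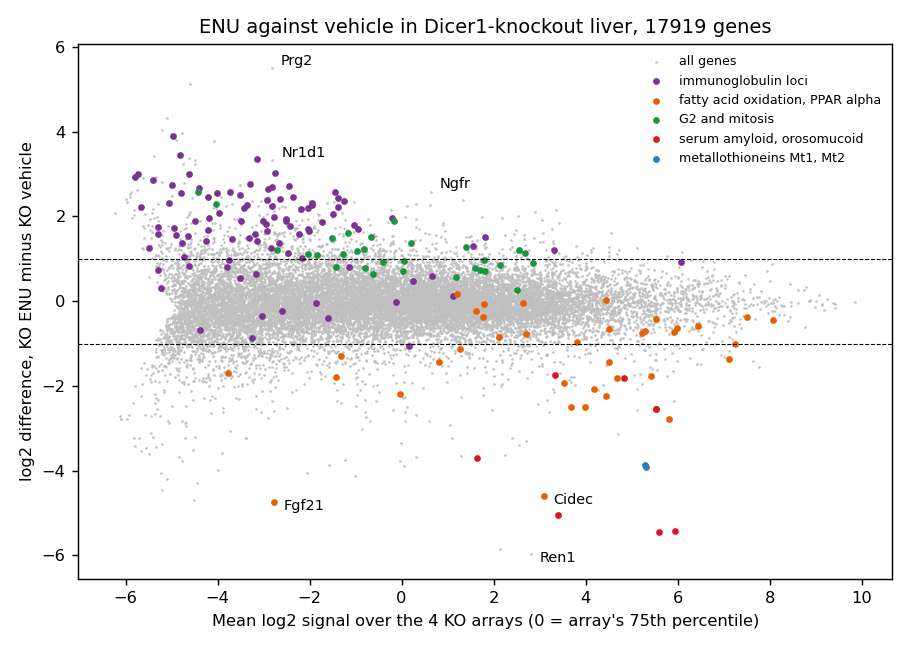
Each point is a gene, placed by its mean log2 signal over the 4 KO arrays and by its log2 difference between KO ENU and KO vehicle. Dashed lines mark 2-fold. Of the probes in the immunoglobulin loci, 41 of 50 and 34 of 45 lie above the upper line, mostly at low signal, while the 4 serum amyloid genes, Mt1, Mt2 and 20 of 38 fatty acid oxidation genes lie below the lower line.

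Serum amyloid A proteins are secreted by the liver in the acute phase response to inflammation. All 4 measured members were lower after ENU. Saa1 read 8.35 and 8.28 in KO vehicle and 2.86 and 2.90 in KO ENU, 43.3-fold lower. Saa2, a close copy, was 43.1-fold lower, from 8.70 and 8.62 to 3.23 and 3.23. Saa3, which macrophages and fat cells also make, was 33.0-fold lower, and Saa4, the constitutive member, 3.36-fold lower. In WT the same probes differed less, with log2 differences of -1.49 for Saa1, -1.36 for Saa2 and -1.12 for Saa3. Whether a probe separates Saa1 from Saa2 was not tested.

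The orosomucoids, acute phase plasma proteins that bind drugs and lipids, were lower as well. Orm3 read 3.64 and 3.35 in KO vehicle and -0.19 and -0.20 in KO ENU, Orm2 was 5.85-fold lower and Orm1 3.52-fold lower. In WT, Orm3 was 2.31-fold lower, and Orm1 and Orm2 differed by 0.12 and -0.08 on the log2 scale. Of 26 measured acute phase genes, 10 were lower and 0 higher in KO, with a median of -0.67, and 7 were lower and 0 higher in WT, with a median of -0.04. Hamp2, a hepcidin gene, belonged to the lower members at 6.16-fold, from 0.46 and 0.56 to -2.08 and -2.15, and its WT difference was larger at -5.62. Lcn2, an iron-sequestering protein of inflamed liver and neutrophils, stayed under 2-fold at -0.81. Il1b, the cytokine interleukin 1 beta, was 3.96-fold higher, from -0.93 and -0.91 to 1.07 and 1.06.

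Metallothioneins are small cysteine-rich proteins that bind zinc and copper, and their genes respond to metals, glucocorticoids and inflammation. Mt1 read 7.24 and 7.20 in KO vehicle and 3.37 and 3.34 in KO ENU, 14.6-fold lower. Mt2 was 15.2-fold lower, from 7.28 and 7.27 to 3.38 and 3.33. The WT differences were of about the same size, 13.5-fold lower for Mt1 and a log2 difference of -3.79 for Mt2. Mt3 and Mt4, whose main sites are brain and stratified epithelium, differed by -0.81 and -0.37. Among the zinc transporters, Slc39a5 was 2.50-fold higher and Slc39a4 2.23-fold higher. The promoters of Mt1 and Mt2 are shown because these genes gave nearly equal differences in both genotypes. Capitals mark matches on either strand to TGCNCNC, the core of the metal response element, of which Mt1 has 3 and Mt2 has 6. The same letters occur in 51.0% of 32851 promoters of equal length, so a single match is common. The sequences run from 250 bases before to 50 after the annotated start, from RefSeq on GRCm38.p6, plus strand, Mt1 at chr8:94178839-94179138 and Mt2 at chr8:94172368-94172667.
Mt1: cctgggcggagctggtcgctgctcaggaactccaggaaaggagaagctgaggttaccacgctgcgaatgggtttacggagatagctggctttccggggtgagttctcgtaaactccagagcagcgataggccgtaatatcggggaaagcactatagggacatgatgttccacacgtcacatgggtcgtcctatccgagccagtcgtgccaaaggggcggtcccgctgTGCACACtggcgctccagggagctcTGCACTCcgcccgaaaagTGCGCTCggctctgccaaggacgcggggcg
Mt2: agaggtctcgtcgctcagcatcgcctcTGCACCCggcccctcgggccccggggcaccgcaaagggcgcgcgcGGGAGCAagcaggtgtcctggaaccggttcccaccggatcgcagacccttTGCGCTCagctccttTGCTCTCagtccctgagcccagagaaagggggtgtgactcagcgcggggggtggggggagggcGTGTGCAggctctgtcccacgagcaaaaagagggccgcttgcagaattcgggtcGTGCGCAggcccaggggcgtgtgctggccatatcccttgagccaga

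Heat shock proteins, chaperones that hold unfolded proteins and are induced by heat and proteotoxic stress, were lower in part. Of 27 measured members of the list, 5 were lower and 1 higher. Hspa1a, the inducible 70 kDa chaperone, read 2.18 and 2.12 in KO vehicle and -1.55 and -1.51 in KO ENU, 12.8-fold lower. The other 3 Hspa1a probes gave log2 differences of -3.69, -3.62 and -2.60. These probes may also read its near-identical neighbour Hspa1b. Hsph1, a co-chaperone of that protein, was 4.41-fold lower and Hspb1, a small heat shock protein, 2.54-fold lower. Dnajb1, a partner of Hspa1a, was 2.33-fold lower on its brightest probe and -0.83 when its probes were averaged. Cirbp, an RNA-binding protein whose expression goes up in the cold, was the single member higher, 5.21-fold, from 0.16 and 0.12 to 2.53 and 2.51. In WT the differences were -2.31 for Hspa1a, -2.81 for Hsph1, -2.96 for Hspb1 and 2.04 for Cirbp, in the same directions. Of the list's 21 genes with a RefSeq promoter, 8 hold GAANNTTC, a pair of inverted heat shock element units, against 7.86% of all promoters. The promoter of Hspb1 is shown as the example with 2 matches, in capitals, on GRCm38.p6, plus strand, at chr5:135887669-135887968.
Hspb1: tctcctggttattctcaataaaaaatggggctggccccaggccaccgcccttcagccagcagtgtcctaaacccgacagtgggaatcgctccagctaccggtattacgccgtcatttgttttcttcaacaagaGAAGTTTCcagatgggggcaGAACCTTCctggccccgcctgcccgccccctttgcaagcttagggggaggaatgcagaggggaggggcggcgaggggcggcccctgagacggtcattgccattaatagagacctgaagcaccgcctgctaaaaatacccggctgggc

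Hmox1, which encodes the haem-degrading enzyme haem oxygenase 1, was 12.6-fold lower, from 3.12 and 3.13 to -0.57 and -0.48, with -1.58 in WT. Apart from Hmox1, Mt1 and Mt2, none of the 29 measured genes of the NRF2 antioxidant list was lower, and 2 were higher, among them Gstm4, a glutathione transferase, at 3.15-fold. In the list of the integrated stress response, 3 of 22 genes were lower. These were Fgf21, Chac1, a glutathione-degrading enzyme, at 3.38-fold lower, and Atf5, a transcription factor, at 3.10-fold lower.

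Renin, the protease that starts the angiotensin cascade and is made mainly in the kidney and, in mice, the salivary gland, had the lowest log2 difference of all measured genes. Ren1 read 5.79 and 5.80 in KO vehicle and -0.11 and -0.26 in KO ENU, 63.0-fold lower. A second probe of Ren1 gave a log2 difference of -5.39, and Ren2, a near-identical gene that the probes may not separate, was 57.9-fold lower. In WT, the vehicle arrays read 2.98 and 3.01 and the ENU arrays -0.31 and -0.31 on the Ren1 probe. The ENU arrays of both genotypes thus lay close together and the vehicle arrays apart. C57BL/6 mice are known to carry Ren1 alone, and which transcript the Ren2 probe reads was not tested.

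Fatty acid oxidation genes, many of them targets of the fasting-activated nuclear receptor PPAR alpha, were often lower. Of 38 measured members, 20 were lower and 0 higher, with a median of -1.07 in KO and -1.27 in WT. The median level of the list was 5.07 and 5.02 on the KO vehicle arrays and 3.23 and 3.24 on the KO ENU arrays. Fgf21, a fasting hormone secreted by the liver, read -0.40 and -0.38 in KO vehicle and -5.33 and -4.95 in KO ENU, 26.9-fold lower, with -2.77 under normexp. Cidec, a protein of lipid droplets, read 5.39 and 5.42 against 0.83 and 0.76, 24.4-fold lower, and was 29.7-fold lower in WT. The microsomal omega-hydroxylases Cyp4a14, Cyp4a31 and Cyp4a10 were 6.90-fold, 5.86-fold and 5.65-fold lower, with WT log2 differences of -3.87, -2.64 and -2.58. Probes of the Cyp4a genes, which are near copies of each other, may share signal.

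Acyl-CoA thioesterases, which release free fatty acids from their coenzyme A esters, showed the same direction. Of 13 members, 6 were lower, among them Acot5 at 9.40-fold (-1.70 under normexp), Acot2 at 4.57-fold and Acot1 at 3.38-fold lower. Apoa4, an apolipoprotein of triglyceride-rich particles, was 9.42-fold lower, and Apoa5 and Apoc3 were 2.40-fold and 2.18-fold lower. For Apoa5 the average over its probes was -0.93. The synthesis of fatty acids was mixed, with 2 of 23 genes higher and 5 lower. Acacb, the acetyl-CoA carboxylase that restrains oxidation, was 5.64-fold lower. Srebf1, the transcription factor of lipogenesis, was 2.44-fold higher and Scd2, a desaturase typical of young and regenerating liver, 3.62-fold higher. Cholesterol synthesis and uptake showed 3 of 30 genes higher and 2 lower with a median of -0.03 in KO, beside 16 higher, 0 lower and a median of 1.31 in WT. 

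Ppargc1a, a coactivator of fasting metabolism, was 2.74-fold lower, from 1.35 and 1.35 to -0.10 and -0.11. Urea cycle and amino acid breakdown genes had 8 of 29 members lower and 0 higher, with a median of -0.65 in KO and -0.19 in WT. Prodh, the enzyme that opens proline degradation, was 6.13-fold lower, Arg1, the arginase of the urea cycle, 3.05-fold, Tdo2, which opens tryptophan breakdown, 2.72-fold, and Mat1a, the hepatic methionine adenosyltransferase, 2.63-fold lower. Of 22 general hepatocyte markers, 2 were lower, Tdo2 and Tat, a tyrosine aminotransferase with -0.99 under quantile normalization, and the median was -0.20.

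**Figure D2:**
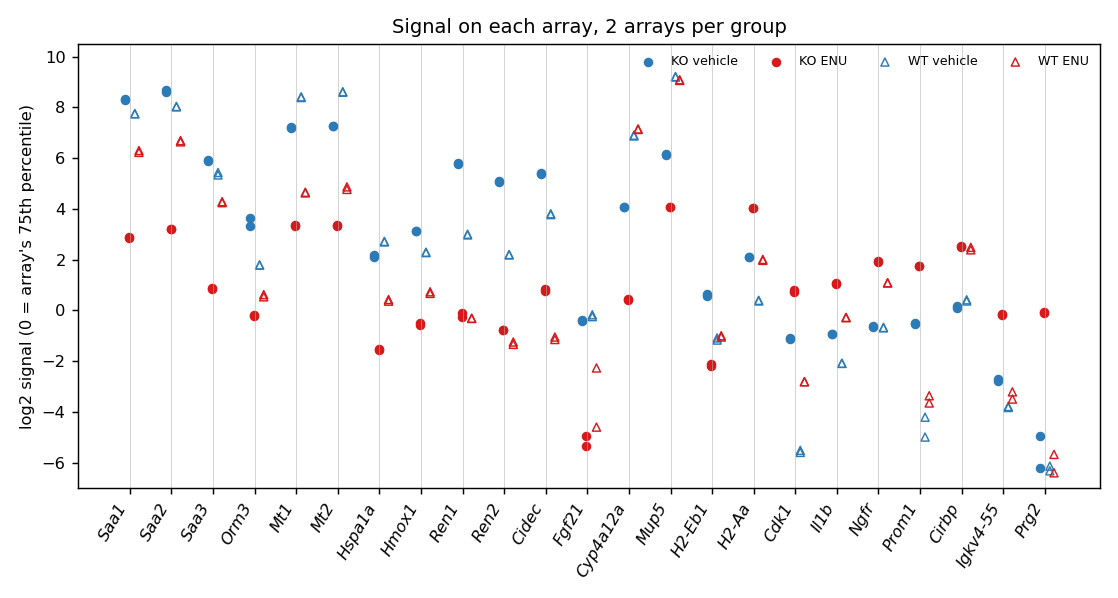
Log2 signal of 23 genes on every array, with 2 arrays per group, filled circles for KO and open triangles for WT, blue for vehicle and red for ENU. The paired arrays nearly coincide for most genes. Saa1 drops from above 8 to below 3 in KO, Mup5 and Cyp4a12a differ in KO and hardly in WT, and Igkv4-55 and Prg2 are raised in KO ENU.

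The circadian clock is a loop in which Clock and Arntl drive Per, Cry and Nr1d genes that repress them. In KO, 4 of 16 measured core clock genes were lower and 1 higher, with a median of -0.33. In WT, 9 were lower and 3 higher, with a median of -1.15. Per2 read 0.39 and 0.38 in KO vehicle and -1.58 and -1.64 in KO ENU, 3.99-fold lower, with -1.32 over the mean of its probes. Per1 and Per3 differed by -0.61 and -0.40 in KO, against -3.68 and -2.93 in WT. Dbp, a direct target of the clock, read 2.50 and 2.49 against 2.69 and 2.66 in KO, while in WT it read 4.48 and 4.46 against 0.82 and 0.83. Arntl differed by 0.76 in KO and 1.42 in WT. Clock output factors, genes that the loop drives, had 9 of 13 members lower in KO, with a median of -1.12, and 12 of 13 lower in WT, with a median of -2.25. Usp2, a deubiquitinase, was 7.05-fold lower in KO and Noct, a deadenylase-like protein that peaks in the evening, 3.89-fold lower. Cyp7a1, the rate-limiting enzyme of bile acid synthesis, was 2.92-fold lower and Lpin1, a phosphatidate phosphatase, 3.17-fold lower.

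For Nr1d1, a repressor of Arntl, the probes differed. Its brightest probe read -4.51 and -4.43 in KO vehicle and -1.16 and -1.13 in KO ENU, the highest log2 difference among genes measured on all 4 KO arrays at 3.33. The 2 other Nr1d1 probes gave 0.53 and -0.21, so the gene has no settled direction. Ciart, a repressor of the clock that was not well above background on the ENU arrays, was at least 3.46-fold lower. With normexp background correction, Ciart and Cry1, which was 2.12-fold lower, lost 2-fold, at -0.85 and -0.40. Of 12 core clock genes with a RefSeq promoter, 3 hold the E-box CACGTG that Clock and Arntl bind, namely Ciart, Cry1 and Per1, against 7.15% of all promoters. The promoter of Ciart, with 3 E-boxes in capitals, is shown as the densest, on GRCm38.p6, minus strand, at chr3:95882179-95882478.
Ciart: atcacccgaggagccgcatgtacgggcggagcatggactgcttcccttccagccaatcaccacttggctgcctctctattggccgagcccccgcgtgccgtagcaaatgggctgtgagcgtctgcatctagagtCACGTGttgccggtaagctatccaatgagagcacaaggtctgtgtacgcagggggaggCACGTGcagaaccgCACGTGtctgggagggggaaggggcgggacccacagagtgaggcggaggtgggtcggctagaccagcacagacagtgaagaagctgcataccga

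Of the 116 genes that were 4-fold or more higher, 37 lay in an immunoglobulin locus. The 2 loci held 50 and 45 of the 17919 genes. Only 54 of the 116 were well above background on all 4 KO arrays, and the others may have entered through the ENU arrays alone. Antibody heavy and light chains are each assembled in B cells from 1 variable segment out of many and a constant region, and plasma cells transcribe the result at very high rates. Of the 12 highest log2 differences among genes measured on all 4 KO arrays, 9 belonged to probes within the kappa light chain locus or the heavy chain locus, and another was described as a heavy chain variable region without a position. These loci were delimited by position after the values were seen, on mm7 at chr6:67598267-70536860 and chr12:110781031-113715723. The kappa span held 50 measured genes or transcripts, of which 41 were higher and 0 lower, with a median of 1.70, or 1.53 with dim members set at their bound. The heavy chain span held 45, of which 34 were higher and 1 lower, with a median of 2.06, or 1.66 with bounds. The lower member was Ighg1. These spans hold 14 and 16 members that were dim in 1 KO group, which entered through the group where they are bright, and 4.39% of all genes were higher.

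The median level of the kappa members was -3.88 and -3.79 in KO vehicle, -2.01 and -1.99 in KO ENU, -4.84 and -4.79 in WT vehicle and -4.48 and -4.30 in WT ENU. The WT median log2 differences were 0.24 and 0.16 for the kappa and heavy chain members. Igkv4-55, at chr6:69625321-69625380 on mm7, read -2.69 and -2.78 in KO vehicle and -0.15 and -0.17 in KO ENU, 5.96-fold higher, with 0.45 in WT. Igkv4-63 was 4.58-fold higher, with 0.99 under normexp. Igkv1-132 was 6.31-fold higher, but its ENU arrays read -2.15 and -0.99, well apart for repeats, and normexp gave 1.47. A kappa variable-region transcript at chr6:69841497-69841556 on mm7 read -4.20 and -4.30 against -1.21 and -1.24, 8.13-fold higher. The variable-region sequences resemble one another, so a probe may read several segments.

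Constant-region and B lineage genes were read separately. Ighm, the constant region of IgM, differed by 0.13, and Ighg1, of IgG1, was 2.08-fold lower on its brightest probe and -0.80 averaged over its probes, or -0.99 without KO vehicle array a. Among 15 measured B and plasma cell markers, 2 were higher and 1 lower, with a median of 0.41 and a summed signal of 34.8 to 35.3 in KO vehicle and 39.3 in KO ENU. Ms4a1, which encodes CD20, was 2.30-fold higher, with 0.62 under normexp and 0.98 without KO vehicle array a. Jchain, which joins polymeric antibodies, was 2.06-fold higher and Cd79b, a B cell receptor subunit, differed by 0.69. The part of B cell or plasma cell number in these values was not tested.

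Prg2, the major basic protein of eosinophils, gave the largest bound of any gene. It was not well above background in KO vehicle and read -0.06 and -0.09 in KO ENU, at least 29.4-fold higher, while its WT log2 difference was 0.19. Here a gene that is dim on both arrays of a group is compared with the lowest signal still measured, so that the fold is a minimum on this scale only. Under normexp the log2 difference of Prg2 was 2.997. Lsamp, a neuronal adhesion protein, was at least 7.51-fold higher, with ENU arrays at -2.55 and -1.54 and a log2 difference of 1.74 under normexp. On the lower side, Slc22a3, an organic cation transporter, was at least 8.83-fold lower, from -2.23 and -2.11, and Scara5, a ferritin receptor, at least 8.07-fold lower, with log2 differences of -1.56 and -1.53 under normexp. Ctcflos, measured in both groups, was 16.5-fold lower with a WT difference of -2.80. D17H6S56E-5 was 14.9-fold lower, from 1.99 and 2.00 to -1.85 and -1.95, with 0.85 in WT. Among all 464 genes dim in 1 KO group, 71 had a bound of 2-fold or more upward and 61 downward.

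Cell-cycle genes were read in lists by phase. Of 30 measured genes of G2 and mitosis, 16 were higher and 0 lower, with a median of 1.10 in KO and 1.51 in WT. The median level of this list was -0.92 and -0.89 in KO vehicle and 0.26 and 0.24 in KO ENU, against -4.14 and -4.12 in WT vehicle and -2.38 and -2.39 in WT ENU. Cdk1, the kinase that starts mitosis, read -1.14 and -1.10 against 0.74 and 0.79, 3.69-fold higher, and its cyclin Ccnb1 was 3.05-fold higher. Cdc25c, the phosphatase that activates Cdk1, and Ttk, a spindle checkpoint kinase, were dim in KO vehicle and at least 3.51-fold and 4.16-fold higher. Both lost 2-fold under normexp, at 0.71 and 0.80. Kifc5b, a minus-end kinesin, was 2.66-fold higher, and 9 of 35 kinesins were higher in all. Kif9 rested on 1 array, with ENU values of -0.85 and -4.60, and without KO ENU array a its difference was -0.30.

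Replication genes were less uniform, with 7 of 32 higher, 2 lower and a median of 0.75. Gins2, a subunit of the replicative helicase, was 3.96-fold higher and Rfc3, a clamp loader subunit, 3.05-fold higher, with 1.03 under normexp for Rfc3. Mcm5 and Mcm6, helicase subunits, were 2.19-fold and 2.07-fold higher. Mcm10, an initiation factor, was 2.94-fold lower, from 2.61 and 2.59 to 1.05 and 1.03, and E2f8, a repressor of E2F targets, 3.54-fold lower, with -1.19 over the mean of its probes. Of 41 histone genes, 7 were higher and 1 lower, with H2ac4 at 2.63-fold and H1f4 at 2.38-fold higher. G1 cyclins and their inhibitors held 1 higher gene of 16, Cdkn3, a phosphatase that acts on Cdk1, at 2.32-fold.

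The p53 pathway, which halts or kills cells with damaged DNA, had 4 of 30 measured targets higher and 2 lower, with a median of 0.25. Cdkn1a, the p21 inhibitor and the classical target, read 2.61 and 2.58 in KO vehicle and 2.77 and 2.76 in KO ENU, and its WT difference was -1.08. Mdm2, which degrades p53, differed by 0.26, Ccng1 by 0.86, Phlda3, an inhibitor of Akt, by 0.72, and Trp53inp1 by 0.98. The higher members were Psrc1, a spindle protein, at 3.26-fold, Tap1, an antigen peptide transporter that also answers to interferon, at 2.86-fold, Tnfrsf10b, a death receptor, at 2.23-fold, and Eda2r, another death receptor, at no less than 2.76-fold. Eda2r and Tnfrsf10b fell short of 2-fold under normexp, at 0.37 and 0.58. Bax, which permeabilises mitochondria, was 2.21-fold lower, from 0.56 and 0.53 to -0.59 and -0.60, against 0.32 in WT. Ei24, a protein of the endoplasmic reticulum, was 2.07-fold lower, with -0.97 under normexp. Bbc3 and Pmaip1, which trigger apoptosis, differed by -0.50 and -0.54.

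Repair of alkylated and oxidised bases showed 1 of 24 genes higher and 0 lower, with a median of 0.23, a share of 1 gene against 4.39% of all genes. The gene was Fen1, the flap endonuclease, at 2.05-fold, which lost 2-fold under normexp at 0.82 and without KO vehicle array b at 0.99. Mgmt, which removes alkyl groups from guanine directly and is consumed in doing so, read -2.88 and -2.96 against -3.36 and -3.45, a difference of -0.49. Mpg, the glycosylase for alkylated bases, differed by 0.40, Polb, the repair polymerase, by 0.19, Xrcc1, its scaffold, by 0.05 and Parp1, a break sensor, by 0.07. The oxidative dealkylases Alkbh2 and Alkbh3 differed by -0.36 and 0.05. Mutyh, Neil3 and Ung, glycosylases for mispaired or oxidised bases and uracil, differed by 0.81, 0.83 and -0.82. Mismatch, excision and recombination repair genes had 3 of 32 members higher, with Fanci, of the crosslink repair complex, at 2.24-fold. It lost 2-fold under normexp, at 0.90.

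**Figure D3:**
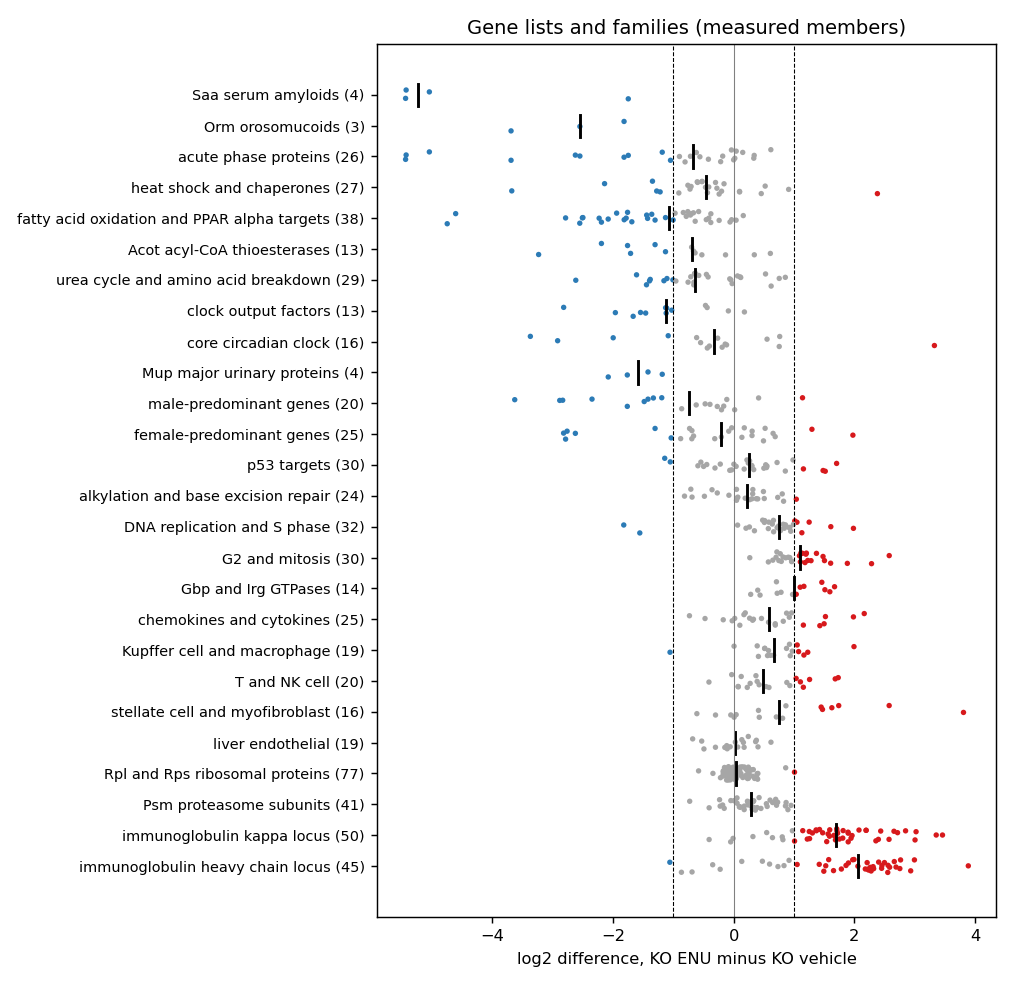
Each point is a measured member of a gene list or family, with the number of members in parentheses, placed by its log2 difference between KO ENU and KO vehicle. Red and blue mark at least 2-fold higher and lower, dashed lines mark 2-fold and black bars the median, which is -5.24 for the serum amyloids, -1.07 for fatty acid oxidation and 1.10 for G2 and mitosis.

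Interferon-induced GTPases attack the vacuoles of intracellular microbes. Of 14 Gbp and Irg members, 7 were higher and 0 lower, with a median of 1.01 in KO and 1.23 in WT. Ifi47 read 1.65 and 1.66 in KO vehicle and 3.34 and 3.31 in KO ENU, 3.19-fold higher. Tgtp1 was 3.02-fold and Gbp2 2.85-fold higher. In the wider interferon list 5 of 31 genes were higher, including Rsad2, an antiviral enzyme, at 2.91-fold. Ifi202b, an inhibitor of DNA sensing, went the other way at 4.77-fold lower, from 1.20 and 1.21 to -1.07 and -1.04. Chemokines and cytokines had 6 of 25 members higher and 0 lower. Ccl8, a monocyte attractant, was 4.48-fold higher (1.35 under normexp) and Cxcl9, an interferon gamma target, 2.87-fold higher. In the Ccl family, read separately, 5 of 16 members were higher and 1 lower. Among the higher were Ccl17, which draws T cells through Ccr4, at 4.79-fold and Ccl21c, a ligand of Ccr7 in lymphoid tissue, at 4.88-fold.

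Of 9 measured MHC class II genes, which present peptides to helper T cells, 3 were higher and 1 lower. In this list 8 members lay above 0, with a median of 0.75. H2-Aa and H2-Ab1, the chains of the I-A molecule, were 3.79-fold and 2.31-fold higher. H2-Eb1, the I-E beta chain, read 0.64 and 0.57 in KO vehicle and -2.18 and -2.10 in KO ENU, 6.70-fold lower, against 0.10 in WT. Tap1 and the immunoproteasome subunits Psmb8 and Psmb9 of class I presentation differed by 1.52, 0.95 and 0.87.

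Markers of resident and recruited blood cells were examined beside these genes. Kupffer cell and macrophage markers had 5 of 19 members higher and 1 lower, with a summed signal of 250.3 and 250.5 in KO vehicle and 445 and 436 in KO ENU. Fcna, a ficolin of Kupffer cells, was 3.98-fold higher, Folr2 2.34-fold, Adgre1, the F4/80 antigen, 2.24-fold and Cd5l 2.11-fold. T and NK cell markers had 6 of 20 members higher, with a summed signal of 12.7 to 12.8 against 21.5 to 21.6. The granzymes Gzma and Gzmb were 3.33-fold and 3.21-fold higher, with 1.01 under normexp for Gzma. Among 16 markers of neutrophils and myeloid progenitors, 2 were higher, Ctsg at 2.90-fold and Mmp9 at 2.83-fold, with Mmp9 at 0.84 under normexp. Liver endothelial markers had 0 of 19 members past 2-fold in either direction, with a summed signal of 62.5 to 64.0 against 60.1 to 61.6. Neutrophil markers summed to 69.2 to 69.4 against 70.6 to 71.8. None of 9 erythroid and 11 platelet markers passed 2-fold. General hepatocyte markers summed to 2851 to 2966 in KO vehicle and 2711 to 2742 in KO ENU. Of the markers listed for these types, 19 of 19 were measured for macrophages, 20 of 22 for T and NK cells and 16 of 18 for neutrophils. The part of cell number in the interferon and chemokine values was not tested.

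Stellate cell and myofibroblast markers had 6 of 16 members higher and 0 lower, with a summed signal of 166 to 172 in KO vehicle and 226 to 230.1 in KO ENU. Stellate cells store retinol and become matrix-producing myofibroblasts in injury. Ngfr, the p75 neurotrophin receptor of activated stellate cells, read -0.63 and -0.67 against 1.95 and 1.91, 5.97-fold higher, with 1.76 in WT. Lrat, which esterifies retinol, was 3.34-fold higher and Des, their intermediate filament, 3.09-fold, with Des at 0.86 under normexp. Hhip, an inhibitor of hedgehog ligands that was dim in KO vehicle, was at least 3.87-fold higher, and under normexp its log2 difference was 0.89. Matrix and fibrosis genes had 4 of 39 members higher and 0 lower, and none of 30 collagens was higher. All 4, Mmp9, Vcan, Mmp12 and Mmp13, lost 2-fold under normexp. Prom1, a surface marker of progenitor and bile duct cells, was 4.87-fold higher, from -0.51 and -0.53 to 1.76 and 1.77. Its list of bile duct and progenitor markers had 4 of 14 members higher and 0 lower, with a median of 0.27. The list summed to 95.3 and 94.15 in KO vehicle and 103.2 and 101.9 in KO ENU. Under normexp, 2 of the higher members, Cldn4 and Slc5a1, lost 2-fold, at 0.83 and 0.66. Lpl, the lipoprotein lipase, was 3.07-fold higher.

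Genes that male mouse livers express more than female ones, under pulsed growth hormone, had 9 of 20 measured members lower and 1 higher, with a median of -0.74 in KO and 0.09 in WT. Cyp4a12a, a fatty acid hydroxylase of male liver, read 4.06 and 4.07 in KO vehicle and 0.45 and 0.43 in KO ENU, 12.4-fold lower, with a WT difference of 0.25. Elovl3, an elongase, was dim in KO ENU and at least 4.13-fold lower, with -0.91 under normexp, and Nat8f5, an acetyltransferase, 5.09-fold lower. Slco1a1, an anion transporter, had KO vehicle arrays at -4.28 and -2.42, too far apart to give a firm value (-0.98 under normexp), and WT arrays near 3.24 after ENU. All 4 measured major urinary protein genes, which encode pheromone carriers, were lower in KO, between 2.27-fold for Mup4 and 4.23-fold for Mup5, and differed by -0.13 to -0.07 in WT. Probes of this family may share signal. Genes of female-predominant expression had 6 of 25 members lower and 2 higher in KO, with a median of -0.20. In WT, 11 were lower and 0 higher, with a median of -0.46. Sult1e1, the oestrogen sulfotransferase, was 6.78-fold lower in KO, with -1.58 under normexp. Igf1, the main product of growth hormone in the liver, was 2.17-fold lower on its brightest probe, with -0.87 and -0.85 without KO vehicle array a or b, and Ghr, its receptor's gene, differed by -0.75.

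Genes of foreign-compound metabolism differed one by one. Cyp1a2 and Cyp1a1, targets of the aryl hydrocarbon receptor, were 2.62-fold and 3.15-fold higher, with Cyp1a1 at 0.62 under normexp. Cyp1b1, the other measured Cyp1 gene, differed by -0.38. Cyp2d13 was 4.11-fold lower, while the other 6 measured Cyp2d genes stayed under 2-fold. Akr1b7 and Akr1c18, aldo-keto reductases of lipid aldehydes and steroids, were 4.44-fold and 4.06-fold higher, and Akr1b7 differed by -0.10 in WT. Of 20 glutathione transferases, 3 were higher and 0 lower. None of 13 glucuronosyltransferases passed 2-fold. The sterol exporters Abcg8 and Abcg5 were 3.33-fold and 2.16-fold higher, with 1.08 under normexp for Abcg8.

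Among other secreted and signalling proteins, Wfdc21, a small protease inhibitor-like protein, was 5.88-fold lower, from 6.32 and 6.45 to 3.82 and 3.84, with 0.01 in WT. Inhbe, an activin subunit made in hepatocytes, was 4.14-fold lower. Stra6, a retinol transporter, was 4.31-fold lower and Eif4ebp3, an inhibitor of cap-dependent translation, 3.77-fold lower. Igfbp6, which binds insulin-like growth factor 2, was 3.77-fold higher, Krt13, an epithelial keratin, 4.24-fold higher and Tnfrsf11b, the decoy receptor osteoprotegerin, 3.48-fold higher. Pygb, the brain form of glycogen phosphorylase, was 3.46-fold higher, with 1.51 in WT. Of 159 odorant and vomeronasal receptor genes, 18 were lower and 4 higher, and 14 were dim in 1 KO group and entered through the other. The receptors Olfr1247 and Olfr131, among the lowest, gave -0.85 and -0.64 under normexp. Lgals4, a galectin of the gut, was 3.60-fold lower, with -2.20 in WT.

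Few members passed 2-fold in several large families. Of 77 ribosomal protein genes, 1 was higher, Rpl4 at 2.01-fold (0.99 without KO vehicle array b), with a median of 0.04. None of 41 proteasome subunits passed 2-fold, though 34 lay above 0, with a median of 0.28, and of 93 respiratory chain genes 1 was higher and 1 lower. Of 18 genes of the microRNA machinery, none passed 2-fold, with values from -0.51 for Tnrc6c to 0.50 for Xrn2. Among 26 reported targets of miR-122, 1 was higher, Vamp3 at 2.34-fold, 22 lay above 0 and the median was 0.38, where 8111 of all 17919 genes lay above 0. Imprinted genes had 1 of 27 members past 2-fold, Slc22a3, and H19, a fetal RNA, differed by 0.88. Of 20 immediate early genes, none passed 2-fold.

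The WT arrays of the same slides were read over the same 17919 genes, of which 1280 (7.14%) were higher and 951 (5.31%) lower after ENU. Genes higher in both genotypes numbered 328, which is 41.7% of those higher in KO and 25.6% of those higher in WT. Genes lower in both numbered 323, or 33.9% of those lower in KO and 34.0% of those lower in WT. In 44 genes the 2 genotypes were at least 2-fold apart from vehicle in opposite directions. No difference between the genotypes was tested, here or above. As both comparisons cross the same pair of slides, a shared direction is not independent of the slide.

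**Figure D4:**
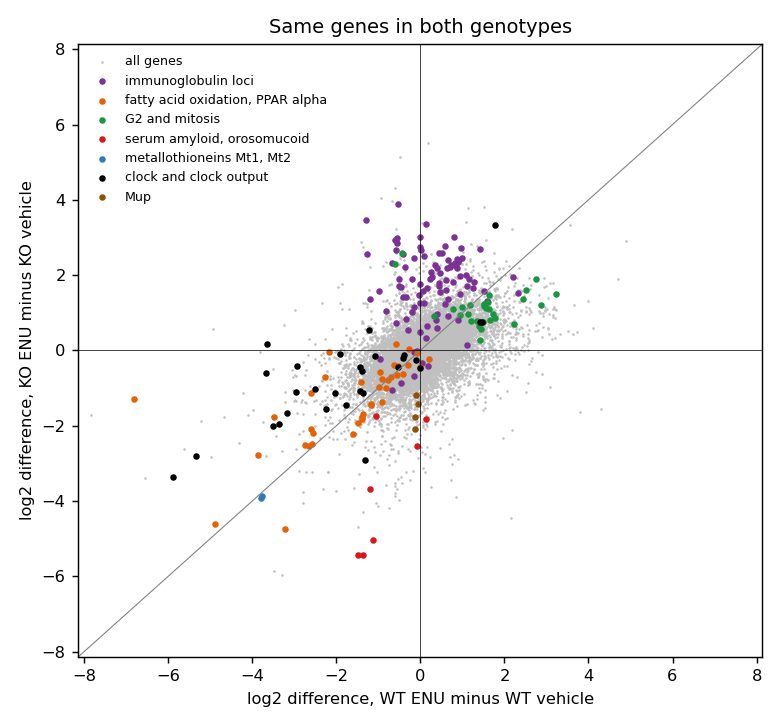
Log2 difference between ENU and vehicle in KO (vertical) against that in WT (horizontal) for each gene, with the diagonal of equal differences. Metallothioneins lie near the diagonal, at -3.86 and -3.92 in KO, clock and output genes mostly above it on the left, immunoglobulin genes mostly above it, and serum amyloid and major urinary protein genes below it.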

How the data were processed

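Liver RNA was measured on single-colour Agilent mouse arrays. The deposited intensity of each spot is background-corrected within its array by Agilent's Feature Extraction, version 10.7.1.1 per the file headers and version 10.5.1 per the submitters' processing notes. From it, log2 signal was computed, less the 75th percentile of each array's non-control spots. Spots marked as outliers were dropped and repeated spots averaged. A probe was kept where both arrays of either KO group were well above background (26901 of 41174 probes), and each gene took its brightest probe. Names were updated through the RefSeq table of GRCm38.p6, by accession (22973 probes), symbol (6644) or synonym (3105), and the rest (8452) were left as deposited. Probe positions come from the files, on mm7. Between 64.4% and 69.3% of spots per KO array were well above background and none was saturated. The number of RNA samples, 1 per group, limits the precision.

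Arrays a and b were averaged to 1 RNA sample per group. The limma fit (limma 3.58.1, R 4.3.3, Benjamini-Hochberg adjustment) over 4 RNA samples had 1 residual degree of freedom, so that a genotype-dependent response enters its error. For each gene that error rests on how far the ENU differences of KO and WT lie apart, which may be technical. The p-values therefore do not measure the spread between mice, and they do not separate ENU from slide. Bounds use, on each dim array, either the lowest signal well above background or the probe's own signal, whichever is higher.

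Named genes were the 12 highest and 12 lowest differences among genes measured on all 4 KO arrays, the 5 largest bounds in each direction, up to 4 members with the largest difference in each list or family, every measured member of the p53, alkylation repair, clock and clock output lists, and Dicer1. Ighm, the sex-linked genes and the immunoglobulin loci were chosen after their values were seen. The 45 gene lists, 12 marker lists and 54 families, and the members, were chosen with earlier results of these data known. Alternatives were normexp background correction with an offset of 50, median centring, quantile normalization, the mean of all probes, other filters on dim probes and each array left out. Some of the genes named by this rule are not reported here.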

Additional observations from a re-analysis of the deposited data

Results flagged for a closer look

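In 7 of the named genes the KO and WT samples moved at least 2-fold in opposite directions after ENU, and this difference between genotypes was not tested, since each group is 1 RNA sample. Igkv8-16, a kappa variable segment, gave a log2 difference of 3.46 in KO and -1.29 in WT, and it was dim in KO vehicle. The transcript 4930597L12Rik gave 2.74 in KO and -1.36 in WT, dim in KO vehicle as well. Cd28, a T cell costimulatory receptor, gave 1.26 and -2.35, with WT vehicle arrays at -6.00 and -2.92. Krt23, a keratin of injured hepatocytes and bile ducts, gave 1.10 and -1.69. F13a1, a clotting factor subunit of monocytes, gave -1.20 and 1.36. Slpi, a secreted protease inhibitor, gave -1.24 and 1.53. Hsd3b5, a steroid dehydrogenase of male liver, gave -1.19 and 1.82. Under normexp the KO difference of 4 of these genes was under 2-fold, at 0.86 for Igkv8-16, 0.10 for Cd28, -0.97 for F13a1 and -0.68 for Hsd3b5. Cd28 also gave 0.56 without KO vehicle array a and 0.93 without KO ENU array b, and 4930597L12Rik gave 1.19 under normexp and 1.80 without KO ENU array b.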

How the results depend on the processing

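No paired analysis was possible because each group holds 1 RNA sample and the KO comparison comes from no test. Under 10 alternatives the 787 higher and 953 lower genes became 292 and 409 with normexp, and 1137 and 2121 with no filter on dim probes. Of the 787 and 953 genes, 283 and 396 were also called with normexp in the same direction. Leaving out a KO array in turn gave 794 to 829 higher and 931 to 1045 lower genes. The limma counts of 0 risen and 0 fallen genes became 3 fallen with normexp and 3 with an intensity trend. Of 263 named genes past 2-fold, 183 stayed past it in the same direction wherever an alternative measured them, and 65 lost it with normexp. With single arrays left out, Nr1d1 ranged from -0.28 to 3.37, being negative without KO ENU array a (-0.14) or b (-0.28), where another probe becomes the brightest, and Kif9 from -0.30 to 3.44, being negative without KO ENU array a. Other reversals were Cd28, at -0.089 with no filter, and the median of the growth hormone list, from 0.25 to -0.20 over the mean of all probes. The cause of the other changes was not tested. Dim genes, whose signal lies near background, have the least certain folds.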
